A study of Mus musculus with 11 samples.

Results

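The DNA replication and mitosis genes described here are 40 genes chosen by name from knowledge of the cell cycle: 20 genes of S phase and 20 genes of mitosis. Earlier results of these data were known when they were chosen. All 40 were found among the 37310 gene identifiers of the count tables, and all 40 passed the filter on low counts, as did 14172 genes in all. They were followed in bulk RNA-seq of organoids, small closed cultures of intestinal epithelium grown in a gel from isolated crypts. The 11 libraries fall into late passage, comprising passages 11, 12 and 13 of mouse_285 and of mouse_283 (n = 6), and early passage, comprising passages 2 and 4 of mouse_285 and passages 2, 3 and 4 of mouse_283 (n = 5). All libraries carry the Lgr5-EGFP-IRES-creERT2 genotype, in which the intestinal stem cell gene Lgr5 drives a fluorescent protein and a Cre recombinase that tamoxifen activates. No inducing agent is named in the labels. The donor mice were 4 or 24 months old, and the labels tie neither age to an animal. The libraries of an animal come from cultures of that animal at different passages, so p-values here measure the spread between these libraries of 2 animals and not between many mice.

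Before a cell divides it copies its genome and then separates the copies. Before S phase the MCM helicase is loaded on DNA, then S phase kinases and cyclin E start the helicase, and polymerases, the sliding clamp and a supply of nucleotides carry out the copying. After S phase, cyclin A and cyclin B with Cdk1 drive entry into mitosis, spindle motors and checkpoint kinases align the chromosomes, and a ubiquitin ligase triggers their separation. In the intestine these genes are active in the stem and transit-amplifying cells of the crypt and fall silent as cells differentiate on the villus, and in organoids the dividing cells sit in the crypt-like buds. A lower level in such bulk RNA can come from fewer dividing cells or from less RNA per dividing cell, which cannot be told apart.

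The genes of both sets are known to be switched on through different promoter elements, so their promoters were read from RefSeq (build GRCm38.p6, from 250 bases before to 50 bases after each transcription start, 300 bases). The count tables were made on build mm9, and no position was carried between the builds. Promoters were at hand for 17 of the 20 S phase genes (18 promoters, since Mcm7 has 2) and for 16 of the 20 mitotic genes. They were searched on both strands for an E2F-type site (TTTGGCGC, TTTGCCGC, TTTCGCGC or TTTCCCGC), the element bound by E2F factors; for the CHR element (TTTGAA or TTCGAA), known from late cell cycle genes; and for the CCAAT box (CCAAT), bound by NF-Y. Overlapping matches were counted separately. An E2F-type site was found in 8 of 18 S phase promoters (44.4%) and in 1 of 16 mitotic promoters (6.25%), that of Cdk1, against 2.26% of all 32851 promoters. The CHR was found in 4 of 18 S phase promoters (22.2%) and in 12 of 16 mitotic promoters (75.0%), against 19.2% of all promoters. All 4 of these S phase promoters and all 12 of these mitotic promoters also held a CCAAT box, a combination present in 7.52% of all promoters. Among other genes of the same processes, 22.6% of 53 replication promoters held the E2F-type site and 70.8% of 65 mitosis promoters held the CHR. Among the 13001 promoters of tested genes, 3.75% held the E2F-type site, 13.8% the CHR and 5.68% a CHR with a CCAAT box. A match describes letters and is not a shown binding site.

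The 5 promoters below are shown because they are among those with the most matches in each set and their RNA is described further on. Some promoters with as many matches hold both motifs and are not shown. Examples are Rfc3 (2 E2F-type matches and 1 CHR match) and Cdk1 (1 E2F-type match and 2 CHR matches). Mcm5 and Mcm6, genes of the replicative helicase, have 2 and 3 E2F-type matches and no CHR. Top2a, encoding the topoisomerase that untangles chromosomes, has 4 CHR matches, and Ccnb2 and Mki67, encoding a mitotic cyclin and the chromosome surface protein Ki-67, have 2 each, with no E2F-type match. Capitals mark each match to any of the 3 motifs on either strand, so that a CCAAT box on the opposite strand reads ATTGG.
Mcm5 (chr8:75109259-75109558, + strand): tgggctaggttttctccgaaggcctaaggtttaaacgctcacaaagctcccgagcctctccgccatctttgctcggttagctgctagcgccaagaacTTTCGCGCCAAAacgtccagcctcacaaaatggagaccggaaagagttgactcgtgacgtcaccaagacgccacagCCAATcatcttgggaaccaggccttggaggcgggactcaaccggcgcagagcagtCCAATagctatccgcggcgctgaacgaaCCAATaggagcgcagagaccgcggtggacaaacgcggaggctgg
Mcm6 (chr1:128359656-128359955, - strand): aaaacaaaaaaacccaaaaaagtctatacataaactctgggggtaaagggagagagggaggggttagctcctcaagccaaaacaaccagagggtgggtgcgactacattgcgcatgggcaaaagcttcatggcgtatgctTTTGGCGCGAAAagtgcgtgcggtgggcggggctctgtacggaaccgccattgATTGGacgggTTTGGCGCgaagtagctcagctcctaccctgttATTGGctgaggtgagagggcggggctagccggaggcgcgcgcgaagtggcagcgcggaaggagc
Top2a (chr11:99024140-99024439, - strand): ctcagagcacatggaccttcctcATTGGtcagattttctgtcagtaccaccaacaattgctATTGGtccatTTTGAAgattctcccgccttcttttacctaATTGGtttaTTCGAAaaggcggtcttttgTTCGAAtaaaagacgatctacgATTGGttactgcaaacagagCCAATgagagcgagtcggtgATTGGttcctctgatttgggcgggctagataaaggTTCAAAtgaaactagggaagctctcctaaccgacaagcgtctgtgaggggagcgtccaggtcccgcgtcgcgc
Ccnb2 (chr9:70421505-70421804, - strand): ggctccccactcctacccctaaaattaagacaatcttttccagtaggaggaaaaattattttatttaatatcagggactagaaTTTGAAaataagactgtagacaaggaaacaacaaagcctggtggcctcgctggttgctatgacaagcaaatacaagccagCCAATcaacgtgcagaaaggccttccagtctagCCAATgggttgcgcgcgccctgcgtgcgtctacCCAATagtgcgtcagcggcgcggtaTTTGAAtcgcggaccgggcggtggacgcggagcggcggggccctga
Mki67 (chr7:135716330-135716629, - strand): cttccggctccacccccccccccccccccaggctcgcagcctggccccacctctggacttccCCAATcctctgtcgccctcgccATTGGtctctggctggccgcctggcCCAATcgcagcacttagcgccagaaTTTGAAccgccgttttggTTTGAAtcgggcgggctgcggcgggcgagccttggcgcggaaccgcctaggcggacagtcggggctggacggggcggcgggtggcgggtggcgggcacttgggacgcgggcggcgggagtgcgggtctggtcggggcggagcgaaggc

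The 40 genes were detected in every library, the lowest value being 0.485 CPM for Ccne2 at passage 3 of mouse_283. Per kilobase of mean transcript length, the S phase genes were led by Mcm7 (147 CPM per kilobase, mean of 11 libraries) and Pcna (142 CPM per kilobase), the sliding clamp, followed by Rrm2 (75.2 CPM per kilobase), the small subunit of the reductase that makes deoxynucleotides. The mitotic genes were led by Ube2c (114 CPM per kilobase), the ubiquitin-conjugating enzyme of the anaphase-promoting complex, by the mitotic kinase Plk1 (83.9 CPM per kilobase) and by Cdc20 (66.7 CPM per kilobase), the activator of the same complex. The lowest were Ccne2, a cyclin E (1.37 CPM per kilobase), Pola1, the catalytic subunit of the polymerase that starts new strands (3.16 CPM per kilobase), the kinetochore motor Cenpe (4.48 CPM per kilobase) and the checkpoint kinase Bub1 (4.81 CPM per kilobase). The lengths are means over all annotated protein-coding transcripts of a gene, 1148 bases for Mcm7, 1518 for Pcna and 1390 for Plk1. Transcripts not used in these cultures count alike, so the order depends on the lengths taken. All other values below are CPM, read counts scaled to library size with TMM normalisation, which compare a gene between libraries but not with another gene.

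Gene reads per library ran from 15114132 to 28949911, so that 3 counts correspond to 0.10 to 0.20 CPM. The labelled epithelium was seen in its markers: 8 epithelial markers summed to between 7680 and 10600 CPM in late libraries and between 8870 and 17000 CPM in early libraries. The highest sum was that of passage 3 of mouse_283. The immune marker Ptprc did not exceed 0.03 CPM in any library, 8 immune markers summed to at most 10.1 CPM in late and 15.5 CPM in early libraries with Cd8a at 0 in all, 8 mesenchymal markers to at most 16.1 CPM in late and 17.3 CPM in early libraries with Dcn and Lum at 0 in all, and 4 endothelial markers to at most 1.91 CPM in late and 2.60 CPM in early libraries with Kdr at 0 in all. In 2 early libraries, passages 3 and 4 of mouse_283, levels over all genes differed from the rest by base composition: the log2 deviation of a gene from its mean over libraries increased with GC content by 0.97 and 0.80 per 10 percentage points of GC over all genes, while in the other 9 libraries this slope lay between -0.38 and 0.20. For late against early over both animals, values without these 2 libraries stand together in the paragraphs on GC content, for the genes described in full and for the counts. The comparisons within and between animals and along passage number use all 11 libraries unless stated otherwise.

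Between late and early passage none of the 40 genes changed past the threshold. With edgeR's quasi-likelihood test, 0 of 20 S phase genes and 0 of 20 mitotic genes had an adjusted p under 0.05, while 0.706% of all tested genes were called higher and 2.34% lower. At an unadjusted p under 0.05, 5 S phase genes and 6 mitotic genes were higher in late passage and none was lower, against 9.74% higher and 13.9% lower among all genes. DESeq2's Wald test called 2 genes, Pola1 and Ccna2, both higher in late passage, with 5.32% of 23493 genes called in either direction by that test. The 23493 genes are all those with any count, a wider set than the genes that passed edgeR's filter. The median log2 change was -0.05 over the S phase genes and 0.16 over the mitotic genes, beside -0.02 over all genes. Leaving out the early library of mouse_283 at passage 2 raised the calls to 12 members, 11 higher and Cdc20 lower in late passage, and gave 4872 calls over all genes (34.7%), against 432 with it (3.05%). Without any other single library the calls among members remained at 0.

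**Figure D1:**
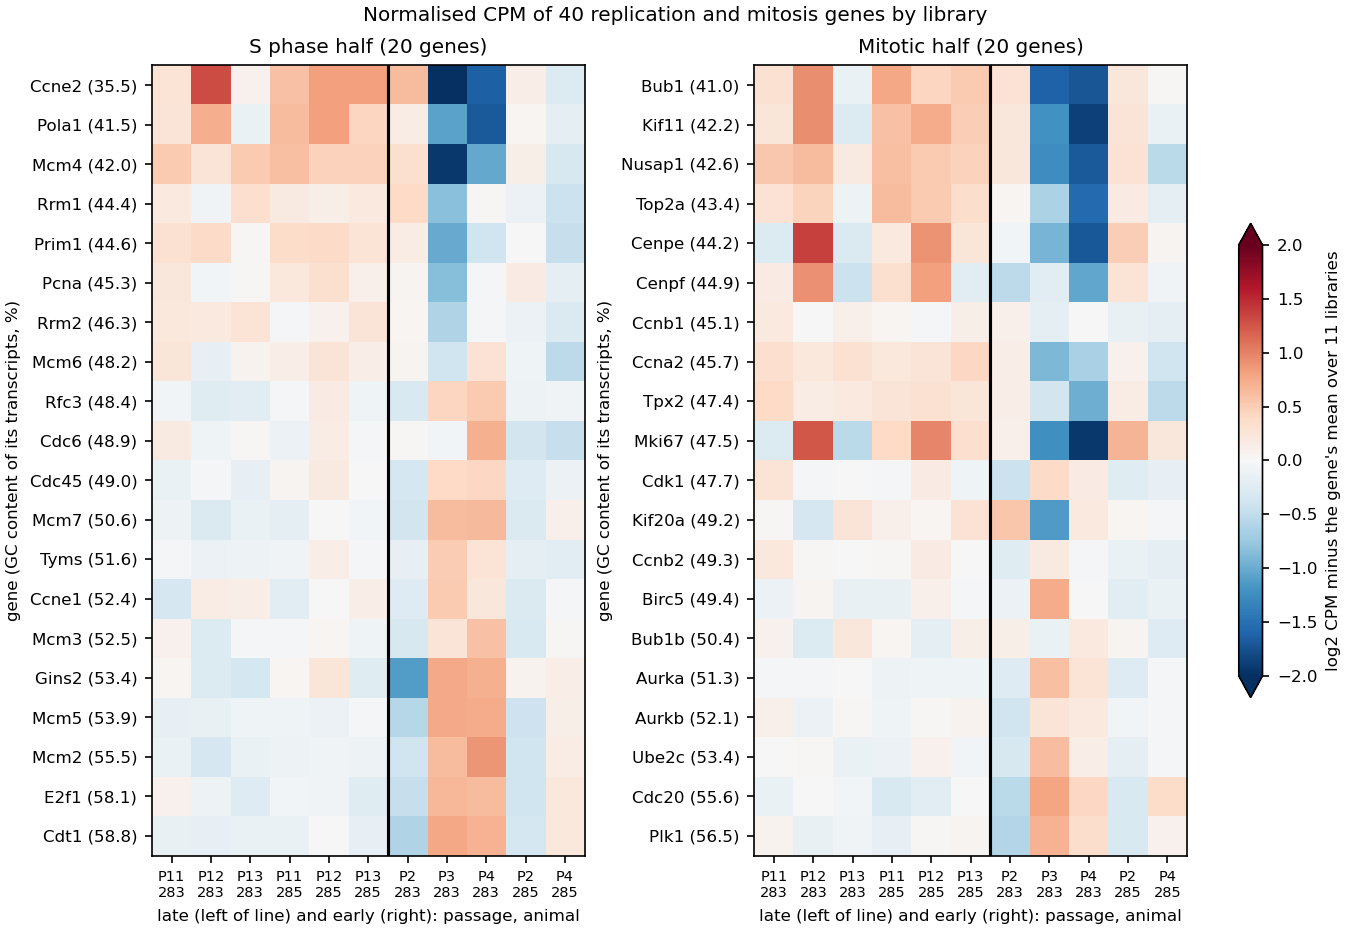
Log2 of normalised CPM for each of the 40 genes (rows, ordered by the GC content of their transcripts in brackets) minus the gene's mean over 11 libraries (columns, passage and animal, 6 late libraries left of the line and 5 early ones right of it), for the S phase genes on the left and the mitotic genes on the right. Colours are nearly flat over most late libraries and split by GC content in passages 3 and 4 of mouse_283, where rows at the top are low and rows at the bottom high.

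The helicase genes show the pattern of these data in 1 protein complex. Mcm2, Mcm3, Mcm4, Mcm5, Mcm6 and Mcm7 encode the 6 subunits of the ring that unwinds DNA, present once each. Mcm4 had 74.2, 67.5 and 67.6 CPM at passages 11, 12 and 13 of mouse_285 and 70.2, 58.4 and 70.2 CPM at the same passages of mouse_283, against early values of 53.2 and 39.2 CPM at passages 2 and 4 of mouse_285 and 61.4, 12.8 and 24.2 CPM at passages 2, 3 and 4 of mouse_283. The late values were close together, passage 2 of mouse_283 lay among them, and the lowest values by far were those of passages 3 and 4 of mouse_283. Late passage averaged 68.0 ± 5.31 CPM and early passage 38.2 ± 20 CPM (SD, n = 6 and 5), a log2 change of 0.83 with an SE of 0.32 and an adjusted p of 0.152 in edgeR's test.

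Mcm2 was highest where Mcm4 was lowest. It had 107, 109 and 106 CPM at passages 11, 12 and 13 of mouse_285 and 104, 90.7 and 104 CPM at those of mouse_283, against 87.0 and 127 CPM at passages 2 and 4 of mouse_285 and 86.4, 178 and 210 CPM at passages 2, 3 and 4 of mouse_283. The 2 highest values were those of passages 3 and 4 of mouse_283, and the groups overlapped (log2 change -0.38, SE 0.23, edgeR adjusted p 0.309). Mcm6 had 169, 185 and 169 CPM at the late passages of mouse_285 and 183, 138 and 163 CPM at those of mouse_283, against 146 and 108 CPM early in mouse_285 and 161, 117 and 188 CPM early in mouse_283, with groups that overlapped (log2 change 0.23, SE 0.17, edgeR adjusted p 0.394). Mcm5 and Mcm7 were highest in passages 3 and 4 of mouse_283, at 217 and 214 CPM for Mcm5 and at 256 and 258 CPM for Mcm7, while their late libraries ran from 114 to 126 CPM and from 134 to 166 CPM. Mcm3 ran from 96.9 to 123 CPM in late and from 93.4 to 175 CPM in early libraries.

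As a ratio of CPM within a library, Mcm4 to Mcm2 was steady in late passage, from 0.618 to 0.696. In early passage it was 0.612 and 0.307 at passages 2 and 4 of mouse_285, and 0.711, 0.0721 and 0.115 at passages 2, 3 and 4 of mouse_283. The Mcm5 to Mcm2 ratio stayed between 1.08 and 1.27 in late and between 0.996 and 1.22 in early libraries. Transcripts of Mcm4 have a GC content of 42.0%, those of Mcm2 55.5% and those of Mcm5 53.9%.

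**Figure D2:**
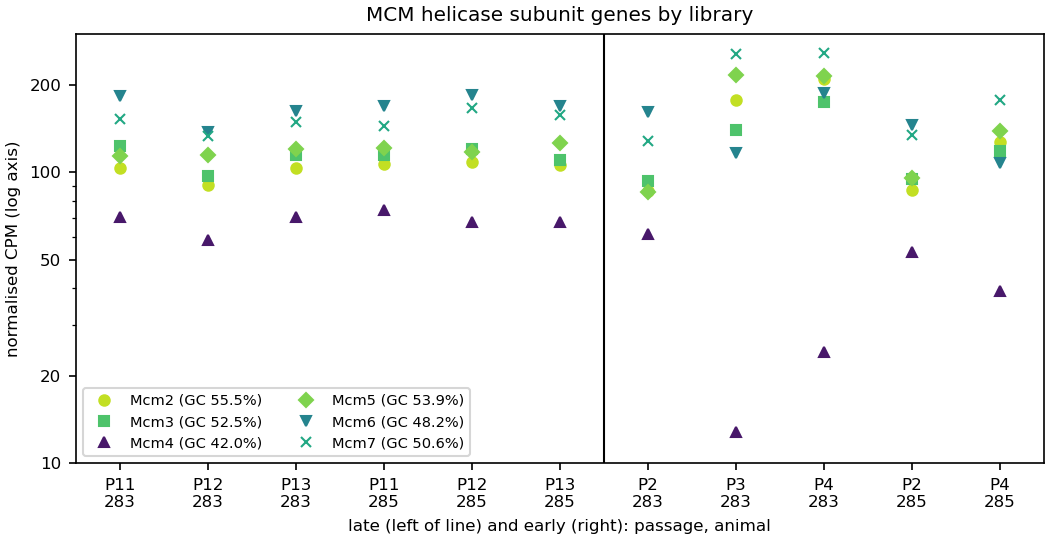
Normalised CPM (log axis) of the 6 helicase subunit genes in each library, late libraries left of the line and early ones right of it, coloured by the GC content of their transcripts. Each gene stays within 1.34-fold across the late libraries, while in passages 3 and 4 of mouse_283 Mcm4 is at 12.8 and 24.2 CPM and Mcm2, Mcm5 and Mcm7 stand at 178 CPM or more.

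Other factors load the helicase and start it. Cdc6 and Cdt1, which load it, ran from 18.6 to 22.7 CPM and from 70.0 to 78.6 CPM in late libraries, against 14.5 to 33.0 CPM and 52.1 to 135 CPM in early libraries. Cdc45 and Gins2, which join it to form the active helicase, ran from 20.4 to 26.0 CPM and from 15.6 to 23.5 CPM in late libraries, against 17.9 to 30.5 CPM and 9.15 to 33.8 CPM in early libraries. For all 4 the early range enclosed the late one, with its top at passage 3 or 4 of mouse_283. Without these 2 libraries the early ranges were 14.5 to 20.4 CPM for Cdc6, 52.1 to 91.4 CPM for Cdt1, 17.9 to 21.1 CPM for Cdc45 and 9.15 to 21.9 CPM for Gins2, so that only that of Cdt1 still enclosed the late range.

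Among the genes of DNA synthesis, those for polymerase alpha and primase had the smallest p-values of the S phase set. Pola1 had 23.4, 26.9 and 20.4 CPM at passages 11, 12 and 13 of mouse_285 and 18.1, 25.2 and 13.9 CPM at those of mouse_283, against 15.6 and 13.3 CPM early in mouse_285 and 16.9, 7.23 and 4.73 CPM at passages 2, 3 and 4 of mouse_283. The lowest late library, passage 13 of mouse_283, lay below 2 early ones, and the log2 change was 0.86 (SE 0.30, edgeR adjusted p 0.127). Prim1, which makes the RNA primer, had 40.7, 41.4 and 38.1 CPM late in mouse_285 and 39.0, 41.2 and 32.1 CPM late in mouse_283, against 31.5 and 23.1 CPM early in mouse_285 and 34.9, 15.8 and 24.0 CPM early in mouse_283. A single late library, passage 13 of mouse_283, lay below the highest early one (log2 change 0.57, SE 0.20, edgeR adjusted p 0.133).

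Pcna had 245, 265 and 228 CPM late in mouse_285 and 248, 205 and 215 CPM late in mouse_283, against 238 and 185 CPM early in mouse_285 and 221, 118 and 207 CPM early in mouse_283. The groups overlapped, with passage 3 of mouse_283 lowest (log2 change 0.26, SE 0.18, edgeR adjusted p 0.353). Rfc3, a subunit of the loader of that clamp, ran from 24.5 to 32.5 CPM in late and from 23.5 to 41.9 CPM in early libraries.

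Rrm1, Rrm2 and Tyms supply the nucleotides. Rrm2 had 92.5, 99.7 and 113 CPM late in mouse_285 and 109, 108 and 114 CPM late in mouse_283, against 86.9 and 77.3 CPM early in mouse_285 and 97.3, 62.2 and 93.0 CPM early in mouse_283. Within each animal every late library was above every early library, but the log2 change of 0.35 (SE 0.15) did not pass the threshold (edgeR adjusted p 0.187). Rrm1, the large subunit of the reductase, and Tyms, thymidylate synthase, had log2 changes of 0.31 and -0.08 with edgeR adjusted p-values of 0.339 and 0.769. Among the regulators of S phase entry, Ccne2 had the largest log2 change of all 40 genes, 1.05, with an SE of 0.48 (edgeR adjusted p 0.205), and it was at 0.485 and 1.05 CPM at passages 3 and 4 of mouse_283, against 2.71 to 8.09 CPM in the other 9 libraries. Its paralog Ccne1 and the transcription factor E2f1 had log2 changes of -0.05 and -0.28, with edgeR adjusted p-values of 0.876 and 0.420.

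Of the mitotic cyclins, Ccna2 had the smallest p of all 40 genes and was 1 of 2 genes, with Tpx2, whose late and early libraries did not overlap. Ccna2 had 105, 109 and 121 CPM at passages 11, 12 and 13 of mouse_285 and 115, 106 and 113 CPM at those of mouse_283, against 96.4 and 69.3 CPM early in mouse_285 and 99.7, 48.9 and 58.3 CPM early in mouse_283. Every late library was above every early one, as was so for 2.21% of all tested genes, and the log2 change was 0.58 (SE 0.19, 95% interval 0.16 to 0.99, edgeR adjusted p 0.119). No member had every late library below every early one, against 3.51% of all tested genes.

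Ccnb1, cyclin B1, had the smallest span of the 40 genes over all 11 libraries, but not without passages 3 and 4 of mouse_283. It had 84.2, 80.8 and 88.9 CPM late in mouse_285 and 93.9, 81.7 and 87.7 CPM late in mouse_283, against 74.1 and 71.8 CPM early in mouse_285 and 88.1, 72.1 and 82.8 CPM early in mouse_283, which is a span of 1.31-fold over 11 libraries (log2 change 0.16, SE 0.13, edgeR adjusted p 0.425). Ccnb2, cyclin B2, spanned 1.37-fold. Cdk1, the kinase they activate, had 107, 122 and 103 CPM late in mouse_285 and 132, 107 and 110 CPM late in mouse_283, against 92.2 and 98.2 CPM early in mouse_285 and 81.2, 143 and 123 CPM early in mouse_283, with groups that overlapped (log2 change 0.10, SE 0.17, edgeR adjusted p 0.709).

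Next come the genes that build the spindle and handle chromosomes. Tpx2, which activates Aurora A and nucleates spindle microtubules, had 70.6, 72.9 and 70.0 CPM late in mouse_285 and 77.8, 65.5 and 67.7 CPM late in mouse_283, against 64.9 and 41 CPM early in mouse_285 and 64.7, 45.8 and 30.0 CPM early in mouse_283. The gap between the groups was narrow, 65.5 against 64.9 CPM (log2 change 0.52, SE 0.20, edgeR adjusted p 0.159). Nusap1, which bundles spindle microtubules, had 51.8, 49.0 and 46.7 CPM late in mouse_285 and 49.3, 52.5 and 38.4 CPM late in mouse_283, against 41.7 and 23.4 CPM early in mouse_285 and 39.8, 14.4 and 10.6 CPM early in mouse_283. Passage 13 of mouse_283 was the only late library within the early range (log2 change 0.88, SE 0.31, edgeR adjusted p 0.135).

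Top2a had 299, 275 and 245 CPM late in mouse_285 and 235, 262 and 179 CPM late in mouse_283, against 216 and 170 CPM early in mouse_285 and 197, 124 and 65.5 CPM early in mouse_283. Again only passage 13 of mouse_283 fell within the early range (log2 change 0.67, SE 0.24, edgeR adjusted p 0.141). Birc5, the survivin subunit of the Aurora B complex, was highest in the early library of mouse_283 at passage 3, at 120 CPM, against 64.4 to 77.1 CPM in late libraries and 62.1 to 72.3 CPM in the other 4 early ones.

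None of the mitotic kinases, checkpoint proteins and partners of the anaphase-promoting complex passed the threshold. The log2 changes were -0.14 for Aurka, 0.00 for Aurkb, -0.13 for Plk1, 0.83 for Bub1 and 0.02 for the checkpoint protein Bub1b. They were -0.32 for Cdc20 and -0.08 for Ube2c. The edgeR adjusted p-values of these 7 genes lay between 0.192 and 0.987. Kif20a, a kinesin of cytokinesis, had a log2 change of 0.04 and spanned 14.7 to 47.1 CPM, both ends in early libraries of mouse_283.

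In late passage most of the 40 genes held a nearly constant level. The highest late library exceeded the lowest by under 1.5-fold for 30 of 40 genes, and the median span was 1.27-fold in both sets, against 1.5-fold over all tested genes. All tested genes were not matched to the 40 for expression level, and its part in the spans was not tested. Over all 11 libraries only 3 of the genes spanned less than 1.5-fold, and the median spans were 2.26-fold for S phase genes, 2.50-fold for mitotic genes and 3.21-fold for all genes. The median SD of log2 CPM was 0.13 for the S phase genes, 0.13 for the mitotic genes and 0.22 for all genes among the 6 late libraries. Among the 5 early ones it was 0.47, 0.48 and 0.58, and 0.28, 0.21 and 0.33 among the 3 early libraries left without passages 3 and 4 of mouse_283.

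The 6 genes that spanned more than 2-fold among late libraries were Mki67, Cenpe, Cenpf, Kif11, Bub1 and Ccne2. Mki67 had 135, 200 and 129 CPM at passages 11, 12 and 13 of mouse_285 and 84.5, 241 and 70.2 CPM at those of mouse_283, against 163 and 119 CPM at passages 2 and 4 of mouse_285 and 110, 43.6 and 26.9 CPM at passages 2, 3 and 4 of mouse_283. Passage 12 of both animals was the highest, and the late range of 70.2 to 241 CPM enclosed 3 of the early values. Late passage averaged 143 ± 66.1 CPM and early passage 92.4 ± 56.2 CPM (SD, n = 6 and 5; log2 change 0.68, SE 0.41, edgeR adjusted p 0.300), so that the spread within late passage alone exceeded the difference between the means.

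The kinetochore genes Cenpe and Cenpf and the spindle motor Kif11 were also highest at passage 12 of both animals. Cenpe had 42.8 CPM at passage 12 of mouse_283 and 30.9 CPM at that of mouse_285, against 13.5 to 19.6 CPM in the other 4 late libraries. Cenpf had 41.5 and 39.0 CPM in the same libraries and 16.4 to 27.7 CPM in the others, and Kif11 79.9 and 70.1 CPM against 34.9 to 63.3 CPM. Ccnb1 did not follow: the ratio of Mki67 to Ccnb1 CPM ran from 0.801 to 2.95 among the late libraries, with the 2 highest at passage 12. Over the 40 genes, the late span rank-correlated with transcript length at 0.52 and with GC content at -0.57 (Spearman, a description over genes that share these libraries), and the 6 genes named have transcripts of 2973 to 5318 bases on average. The slope of all genes on GC content was -0.38 per 10 points at passage 12 of mouse_283, the lowest of the 11 libraries, and -0.27 at passage 12 of mouse_285. Whether length or base composition had a part in these spans was not tested.

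The change between late and early passage followed the GC content of the transcripts closely. Over the 40 genes the Spearman correlation of the log2 change with GC content was -0.92, and it was -0.92 among the S phase and -0.93 among the mitotic genes, against -0.56 over 13709 tested genes. The genes share the same libraries, so this is a description. Of the 20 genes at or under the members' median GC content of 48.7%, 19 had a positive log2 change, with a median of 0.59, and of the 20 genes above it 5 had a positive one, with a median of -0.12. The sets did not differ much in this property, with median GC contents of 49.0% for S phase genes, 47.6% for mitotic genes and 51.2% for all tested genes.

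**Figure D3:**
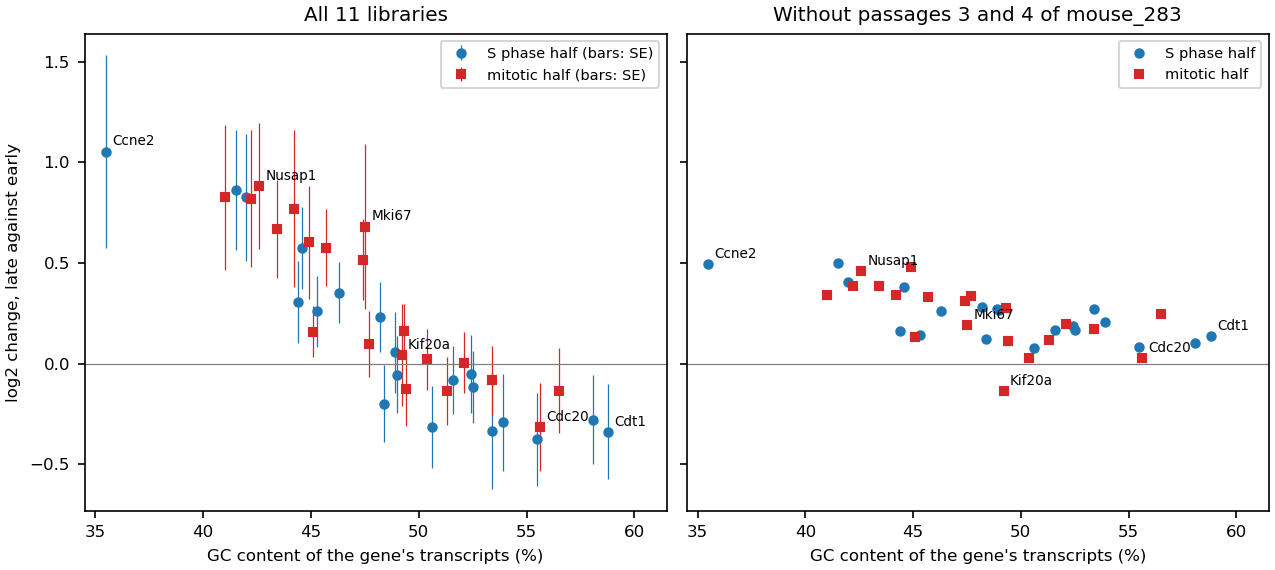
Log2 change of each gene, late against early (vertical), by the GC content of its transcripts (horizontal), S phase genes as circles and mitotic genes as squares, over all 11 libraries with SE bars (left) and without passages 3 and 4 of mouse_283 (right). The changes run from 1.05 for Ccne2 to -0.38 for Mcm2 on the left, and on the right all but Kif20a lie above 0.

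Passages 3 and 4 of mouse_283 held the lowest or the highest value of 37 of the 40 genes, the exceptions being Ccnb1, Ccnb2 and Bub1b. All 17 genes lowest there had a GC content of at most 49.2%, and all 20 genes highest there had one of at least 47.7%. Without these 2 libraries the correlation with GC content was -0.69, and 20 of 20 S phase genes and 19 of 20 mitotic genes had a positive log2 change, with medians of 0.20 and 0.26 beside 0.02 over all genes. None of them passed the threshold (edgeR, lowest adjusted p 0.15), against 4.76% of all genes. At an unadjusted p under 0.05, 4 S phase and 5 mitotic genes were higher and 0 lower. The share of all genes at that unadjusted threshold was not taken, so these counts have no background beside them. Gene by gene, the log2 change without them was 0.41 for Mcm4, 0.08 for Mcm2, 0.28 for Mcm6, 0.50 for Pola1, 0.38 for Prim1, 0.15 for Pcna, 0.26 for Rrm2 and 0.50 for Ccne2. It was 0.33 for Ccna2, 0.31 for Tpx2, 0.46 for Nusap1, 0.39 for Top2a, 0.19 for Mki67, 0.34 for Cdk1, 0.13 for Ccnb1 and 0.25 for Plk1. Of these genes, Mcm2 and Plk1 had the other sign with these libraries than without them, and neither passed the threshold in either fit. In that comparison 5 genes (Tyms, Ccna2, Ccnb2, Cdk1 and Tpx2) had every late library above all 3 early ones, against 4.54% of all tested genes. With a correction of every library for GC content and length, fitted over all genes, the medians were -0.003 for S phase and 0.18 for mitotic genes. None of the 40 genes was then called (lowest edgeR adjusted p 0.0514, Nusap1), against 5.56% of all genes. The correction did not remove the relation to GC content in full. After it the changes of the 40 genes still rank-correlated with GC content at -0.44, and at -0.42 with the 2 libraries left out as well. With that correction and without the 2 libraries, Pola1 (log2 change 0.51, adjusted p 0.0494), Plk1 (0.33, 0.0472) and Nusap1 (0.42, 0.0442) passed edgeR's threshold, an analysis added after the values were seen, in which 8.81% of all genes passed. A share of 3 in 40 genes is near that background.

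Set side by side by passage, the S phase and mitotic genes differed most at passage 4 of mouse_283. The score of a set is the mean over its 20 genes of log2 CPM minus the gene's mean over libraries. The S phase score averaged 0.08 ± 0.07 in late and -0.09 ± 0.13 in early passage, and the mitotic score 0.16 ± 0.12 in late and -0.20 ± 0.23 in early passage (SD, n = 6 and 5). The S phase score at passages 11, 12 and 13 was 0.09, 0.20 and 0.09 in mouse_285 and 0.07, 0.03 and -0.01 in mouse_283, against -0.16 and -0.13 at passages 2 and 4 of mouse_285 and -0.16, -0.15 and 0.13 at passages 2, 3 and 4 of mouse_283. The mitotic score was 0.16, 0.28 and 0.16 late in mouse_285 and 0.12, 0.30 and -0.04 late in mouse_283, against 0.04 and -0.11 early in mouse_285 and -0.08, -0.28 and -0.55 early in mouse_283. Late and early libraries overlapped in both scores. In the 3 early libraries left without passages 3 and 4 of mouse_283 the S phase score averaged -0.15 ± 0.02 and the mitotic score -0.05 ± 0.08 (SD, n = 3). All of these S phase scores were below those of the late libraries, while the mitotic scores still overlapped with them.

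The early library of mouse_283 at passage 4 had the largest split, with the S phase score 0.69 above the mitotic score. It was 0.53 after correction for GC content and length, which did not remove the relation of the changes to GC content in full. At passage 3 of the same animal the value was 0.13, and -0.12 after that correction, and the lowest was -0.27, at passage 12 of mouse_283. The difference of S phase minus mitotic score averaged -0.09 ± 0.10 in late and 0.10 ± 0.35 in early passage, and -0.10 ± 0.09 in the 3 early libraries left without passages 3 and 4 of mouse_283, so that it did not separate the stages beyond the spread between libraries. Taken as medians over genes in place of means, the late minus early difference was -0.03 for the S phase score and 0.14 for the mitotic score, so the sign of the S phase difference rests on the way genes are averaged.

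**Figure D4:**
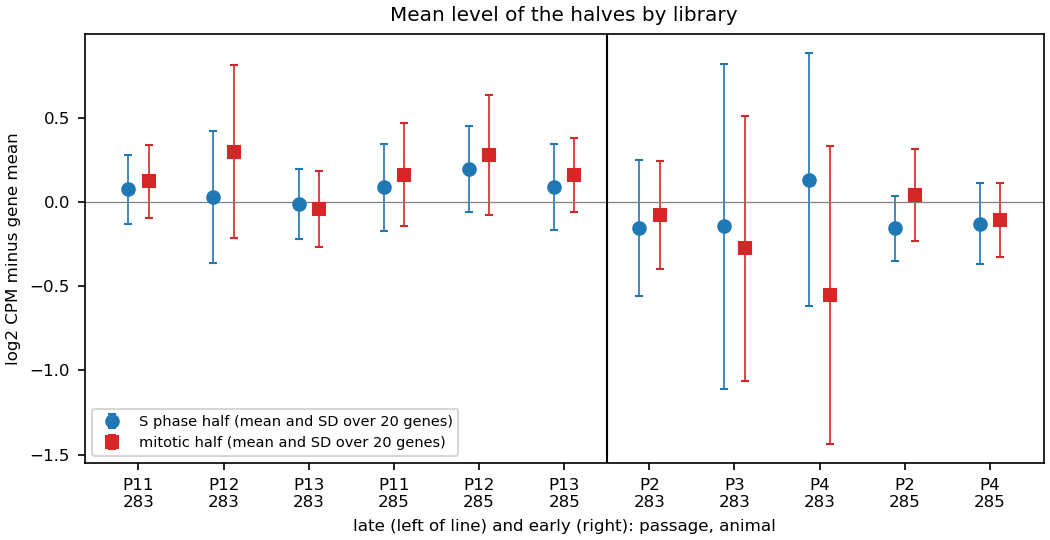
Mean over 20 S phase genes (circles) and over 20 mitotic genes (squares) of log2 CPM minus each gene's mean over 11 libraries, with bars for the SD over genes, which are not replicates, late libraries left of the line and early ones right of it. The scores stay within 0.30 of 0 in all but passage 4 of mouse_283, where the mitotic score is -0.55 and the S phase score 0.13, and the bars are widest at passages 3 and 4 of that animal.

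The stage difference was also taken within each animal. In mouse_285, 17 of 20 S phase genes and 19 of 20 mitotic genes had a positive log2 change, with medians of 0.22 and 0.21 beside 0.00 over all genes. With edgeR, 0 of the 40 genes passed the threshold in this animal, and 0 did at an unadjusted p under 0.05, against 0% of all genes at the adjusted and 5.38% at the unadjusted threshold. The spread in this test was estimated over all 11 libraries, passages 3 and 4 of mouse_283 included. Without those 2 libraries edgeR again called 0 of the 40 (lowest adjusted p 0.0921), against 2.17% of all genes. At an unadjusted p under 0.05, 8 S phase and 4 mitotic genes were then higher in late passage and 0 lower. The share of all genes at that unadjusted threshold was not taken. In 20 of the 40 genes all 3 late libraries of mouse_285 were above both early ones, against 18.2% of all tested genes, and in 0 they were below, against 18.3%. The changes in this animal also followed GC content, with a Spearman correlation of -0.88 over the 40 genes and -0.40 over all genes. The slope of all genes on GC content was 0.20 per 10 points at passage 4 of mouse_285, against -0.29 to -0.22 in its other 4 libraries, and the part of this in the counts was not tested. With all 11 libraries in the fit, the smallest p in this animal was that of Mcm6 (log2 change 0.46, SE 0.26, edgeR adjusted p 0.993).

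In mouse_283, 8 of 20 S phase genes and 12 of 20 mitotic genes had a positive log2 change, with medians of -0.26 and 0.11 beside -0.04 over all genes. These changes also followed GC content, with a Spearman correlation of -0.88 over the 40 genes and -0.58 over all genes. With the correction for GC content and length the medians were -0.13 and 0.15, beside 0.09 over all genes. Leaving out passages 3 and 4 leaves passage 2 as the only early library of this animal. Then 19 S phase and 18 mitotic genes had a positive log2 change, with medians of 0.19 and 0.24. With edgeR on all 11 libraries, 0 of the 40 passed the threshold, and at an unadjusted p under 0.05, 9 were higher and Mcm2 was lower in late passage, against 1.42% of all genes at the adjusted and 18.8% at the unadjusted threshold. The smallest p-values were those of Nusap1 (log2 change 1.12, SE 0.43, adjusted p 0.225) and Ccna2 (0.69, SE 0.27, adjusted p 0.227). Rrm2, Ccna2 and Tpx2 had all 3 late libraries above all 3 early ones, against 8.28% of all genes. Without the early library at passage 2, which leaves passages 3 and 4 as the early libraries of this animal, 26 of the 40 genes were called, 13 higher and 13 lower, while 54.8% of all genes were called in that fit.

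The change between the stages was not shown to differ between the animals. For the interaction of stage and animal, 0 of the 40 genes passed edgeR's threshold and 0 did at an unadjusted p under 0.05, against 0% and 2.13% of all genes, with median log2 differences (mouse_285 minus mouse_283) of 0.40 for S phase and 0.10 for mitotic genes. The gene with the smallest p was Cdc6 (0.66, SE 0.38, adjusted p 0.990). Without the early library of mouse_283 at passage 2, 11 of the 40 genes were called, against 16.5% of all genes. Leaving out passages 3 and 4 of mouse_283 instead leaves passage 2 as its only early library. The median differences were then 0.07 for S phase and -0.006 for mitotic genes.

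Between mouse_285 and mouse_283 with the stage in the model, 0 of the 40 genes passed edgeR's threshold and 0 did at an unadjusted p under 0.05, against 0.0776% and 5.15% of all genes, and DESeq2 called 0 as well. The median log2 differences were -0.09 for S phase and 0.01 for mitotic genes. Without passages 3 and 4 of mouse_283 they were 0.096 and 0.045, so the sign for S phase genes rests on these libraries. Along passage number within a stage, 0 of the 40 genes passed edgeR's threshold, against 0% of all genes. At an unadjusted p under 0.05, Nusap1, Top2a and Tpx2 had negative slopes, of -0.41, -0.31 and -0.25 log2 units per passage with adjusted p-values of 0.596 each, against 6.43% of all genes at that threshold in either direction.

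Other genes of both processes, from lists drawn up by name with earlier results of these data known, were set beside the 40. Of 54 other replication genes, 1 rose in late passage past edgeR's threshold and 0 fell, and at an unadjusted p under 0.05, 14 were higher and 2 lower. Over all genes 0.706% were called higher and 2.34% lower, and 9.74% and 13.9% at the unadjusted threshold. The median log2 change of the 54 was 0.24 and 40 of them were positive. Rfc1, the large subunit of the clamp loader, had 45.4, 44.4 and 43.0 CPM late in mouse_285 and 38.4, 47.1 and 32.5 CPM late in mouse_283, against 31.4 and 22.5 CPM early in mouse_285 and 26.2, 19.5 and 14 CPM early in mouse_283. Late and early libraries did not overlap, at 41.8 ± 5.42 CPM in late and 22.7 ± 6.61 CPM in early passage (SD, n = 6 and 5; log2 change 0.87, SE 0.20, edgeR adjusted p 0.0335). After correction for GC content and length its log2 change was 0.54 (edgeR adjusted p 0.069). With the 2 early libraries of mouse_283 at passages 3 and 4 left out, the log2 change was 0.67 (edgeR adjusted p 0.0268). When any 1 of the 6 late libraries, passage 3 of mouse_283 or passage 4 of mouse_285 was left out, the log2 change stayed between 0.78 and 0.91 and the adjusted p lay between 0.0544 and 0.121. Of 65 other mitosis genes, 0 passed edgeR's threshold, and at an unadjusted p under 0.05, 24 were higher and 2 lower. Their median log2 change was 0.45 and 49 were positive. With the correction for GC content and length it was 0.20 (56 positive), and 0.26 (55 positive) without passages 3 and 4 of mouse_283. For the 54 replication genes the medians in these settings were 0.185 and 0.245. DESeq2 called 8 of the 54, all higher, and 11 of the 65, 10 higher and 1 lower, against 5.32% of the 23493 genes with any count. That set is wider than the genes that passed edgeR's filter, so the share is not a like background for these lists. With the correction for GC content and length, edgeR called 4 replication genes (Cdc7, Chek1, Dbf4 and Wdhd1) and 9 mitosis genes, all higher, against 5.56% of all genes. Without passages 3 and 4 of mouse_283 it called Rfc1 and the cytokinesis gene Cep55, against 4.76% of all genes. Without passage 2 of mouse_283 it called 20 and 31 genes, against 34.7% of all genes.

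Markers of the differentiated and stem cells of the cultures are given beside these values. Markers of enterocytes, the absorptive cells that no longer divide, summed to between 2990 and 4970 CPM over 12 genes in late and between 4770 and 6980 CPM in early libraries. Anpep, an enterocyte peptidase, ran from 325 to 935 CPM in late and from 1250 to 1870 CPM in early libraries, without overlap, while Alpi, another enterocyte enzyme, ran from 48.5 to 314 CPM in late and from 59.7 to 235 CPM in early libraries, with overlap. Markers of tuft cells summed to between 7.86 and 12.5 CPM over 8 genes in late and between 19.7 and 26.7 CPM in early libraries, without overlap. Sums for Paneth cells (1190 to 2190 CPM in late, 871 to 2950 CPM in early), goblet cells (2900 to 5220 CPM in late, 3640 to 8460 CPM in early) and enteroendocrine cells (737 to 1100 CPM in late, 606 to 922 CPM in early) overlapped. Markers of stem cells summed to between 1360 and 3070 CPM over 10 genes in late and between 1030 and 2460 CPM in early libraries, and Lgr5 ran from 97.9 to 246 CPM in late and from 42.9 to 226 CPM in early libraries, with overlap in both. Several early ends were those of passages 3 and 4 of mouse_283, the libraries that differed by base composition. At passage 3 they were 1030 CPM for stem, 8460 CPM for goblet and 922 CPM for enteroendocrine cells. At passage 4 they were 2460 CPM for stem, 4770 CPM for enterocyte and 2950 CPM for Paneth cells. Whether the marker differences had a part in the levels of the replication and mitosis genes was not tested.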

How the data were processed

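RNA of 11 organoid cultures was sequenced, and the deposited tables give counts of reads for every gene, 1 table a library. Per the submitters' processing notes, reads were handled with Trimmomatic and STAR on mouse build mm9; versions, annotation release and the role of each tool are not given in the sources used here. The unstranded count column was used, since the first strand column held 50.0% to 50.2% of stranded reads, and gene reads ran from 15114132 to 28949911. The summary lines that name no gene were left out: unmapped reads were 4.76% to 10.2%, multimapping reads 5.92% to 8.78%, reads in no gene 3.77% to 11.7% and ambiguous reads 3.11% to 4.03% of all. Without strand, reads of overlapping antisense genes cannot be told apart. The passage in each file's name was higher by 1 than in the sample title, and titles were used.

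Analyses used R 4.3.3, edgeR 4.0.16, limma 3.58.1 and DESeq2 1.42.0. After filterByExpr on the 4 stage-by-animal groups (14172 genes) and TMM, edgeR's quasi-likelihood F test was two-sided, with Benjamini-Hochberg adjustment over all tested genes and a threshold of 0.05. The animal was in the model for late against early; libraries of the same animal had a median correlation of deviations across stages of 0.11, and those of different animals -0.14. Log2 CPM used a prior count of 2. The SE is the log2 change divided by the square root of F. GC content and transcript length are means over a gene's protein-coding transcripts in GENCODE's annotation of the later build GRCm38, known for 96.7% of tested genes and all members; the correction fitted each library with a spline (5 degrees of freedom). Described in full were the members with the smallest p (4 per set and comparison) with Mki67, Pcna, Mcm2, Mcm6, Cdk1, Ccnb1 and Top2a; other members are singled out for spread or position after their values were seen. The test was run on simulated counts without an animal effect or a GC-dependent shift between libraries. It was not checked under either. Members, lists and rules were chosen with earlier results of these data known. Alternatives were other scalings, DESeq2, no filter, a GC and length correction, no animal term, and leaving out libraries.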

Additional observations from a re-analysis of the deposited data

Results flagged for a closer look

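In 4 of the 80 groups tested (each of the 40 genes in late and in early passage) 1 library lay far from the rest of its group by Dixon's test, and chance flags about 1 in 20 groups. Cdt1 in late passage had 78.6 CPM at passage 12 of mouse_285, while the other late libraries ran from 70.0 to 72.1 CPM. Mcm2 in late passage had 90.7 CPM at passage 12 of mouse_283, while the others ran from 104 to 109 CPM. Prim1 in late passage had 32.1 CPM at passage 13 of mouse_283, while the others ran from 38.1 to 41.4 CPM. Birc5 in early passage had 120 CPM at passage 3 of mouse_283, while the others ran from 62.1 to 72.3 CPM.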

How the results depend on the processing

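Among the 40 genes, the calls of late against early numbered 0 in the edgeR fit, 2 with DESeq2, 9 without the low-count filter (Mcm4, Ccne2, Pola1, Mki67, Top2a, Bub1, Cenpe, Kif11 and Nusap1) and 3 with the GC and length correction and without passages 3 and 4 of mouse_283; the cause was not tested. Calls over all genes were 432 in the edgeR fit (3.05%), and 1250 with DESeq2 (5.32%) and 1819 without the filter (7.74%), both of 23493 genes. They were 1243 with the correction and without the 2 libraries (8.81%). With the correction alone they were 762 (5.56%), and without the 2 libraries 697 (4.76%). The S phase median log2 change was 0.195 without them and 0.236 with the correction added. Leaving out 1 library at a time gave 0 to 12 calls among members and 173 to 4872 over all genes (1.17% to 34.7%). Within mouse_283, calls among members numbered 8 without the filter, against 6.16% of all genes. They numbered 0 to 26 leaving out 1 library, the 26 against 54.8% of all genes. For the interaction they numbered 0 to 11, the 11 against 16.5% of all genes. With the correction and without the 2 libraries, Plk1 passed the threshold with a sign opposite to the edgeR fit (log2 change 0.328). Within mouse_283 that setting leaves passage 2 as the only early library, so no calls are given for it. Gins2 (log2 change 1.146) and Aurkb (0.536) were among the genes whose sign within mouse_283 was then opposite to the edgeR fit. Without the replicate block (the animal term) the calls among members remained at 0. The late minus early difference of the S phase score was 0.317 on plain CPM and -0.025 with medians over genes; that of the mitotic score was 0.142 with medians and 0.174 with the correction. Plain CPM shifts all genes of a library alike. Only 2 animals were sampled, the early group of mouse_285 has 2 libraries, and Ccne2 at 0.485 CPM is the shallowest value.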
